A study of Mus musculus with 8 samples.

Results

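Nucleocytoplasmic transport genes encode the nuclear pore complex and the carriers that move proteins and RNA through it. The members described here are the genes of the deposited expression table whose pathway annotation holds Nucleocytoplasmic transport and holds neither Spliceosome nor Ribosome biogenesis in eukaryotes. They number 92 of 22063 genes. The pathway annotation holds 130 genes in all, and 27 of these were left out as also annotated to Spliceosome and 11 as also annotated to Ribosome biogenesis in eukaryotes, among them the GTPase Ran and the export receptors Xpo1 and Nxf1. The rule reads no measured value, but the group itself was picked from pathways already seen to differ between the tranilast and control libraries. The fold changes and calls below are therefore a description of that contrast and not a test of it.

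The nuclear pore complex is a ringed channel in the nuclear envelope. Its Y-shaped scaffold complexes, an inner ring and membrane-anchored nucleoporins hold a central mesh of flexible nucleoporins, with filaments on the cytoplasmic face and a basket on the nuclear face. Importins carry cargo in and exportins carry it out, and the direction is set by the small GTPase Ran, which is loaded with GTP by Rcc1 in the nucleus and discharged with the help of Rangap1 in the cytoplasm.

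The series holds 8 mouse RNA-seq libraries labelled as liver of wild-type genotype, 4 with the treatment Control and 4 with Control+tranilast. The labels give no diet, dose, age or sex, the series' design text places both groups on a high-fat and high-cholesterol (HFHC) diet, and the study's methods describe male C57BL/6J mice given the vehicle or tranilast, an anti-allergic drug, by daily gavage, the drug at more than one dose. Which dose these mice received and whether each library is 1 animal are not given in the sources used here, so the error measures the spread between these libraries. Total counts ranged from 14585153 to 15618787 in the control and from 12053036 to 14679386 in the tranilast libraries. The liver label was not borne out by marker genes. The 9 hepatocyte markers together held at most 0.000191% of the counts of any library, Hnf4a, Tat, Serpina1a and Cyp3a11 were at 0 in all 8, and albumin (Alb) reached no more than 2 counts. The 14 macrophage markers held 1.09% to 1.15% of control and 1.08% to 1.14% of tranilast counts, and Csf1r, the receptor for macrophage colony-stimulating factor, was counted 35855, 36966, 38395 and 37053 times in control replicates 1 to 4. Levels were uneven within this list, with Mertk at no more than 1 count and Aif1 at 11 to 25 counts in any library. Of the 13 macrophage markers tested, 7 were called lower and 2 higher, with a median log2 fold change of -0.13 that was -0.013 by library size alone with 3 lower and 3 higher. Csf1r was at -0.16 ± 0.02, Fcgr1 at -1.42 ± 0.11, Cd68 at 0.16 ± 0.03 and Adgre1 at 0.21 ± 0.05, and the part of these in the members' values was not tested. Markers of Kupffer, endothelial, stellate, lymphoid and neutrophil cells each held at most 0.000207% of the counts.

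Of the 92 members, 81 passed the filter on low counts. The 6 genes Kpna7, Ranbp17, Pom121l2, Semp2l2a, Semp2l1 and 1700123L14Rik had a count of 0 in every library, which at 3 counts allows no more than 0.249 CPM (counts scaled by library size) in the shallowest library. The remaining 5 of the 11 left out stayed under 20 counts in every library, and these were Eef1a2 (at most 18), Gm49325 (9), Nupl1 (5), Semp2l2b (5) and Nup62cl (1). Levels in CPM are given on TMM-scaled library sizes. Fold changes are tranilast minus control on the log2 scale from edgeR's quasi-likelihood fit with its standard error (SE), and a gene is called at a Benjamini-Hochberg adjusted p under 0.05 over the 10770 genes tested.

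Most nuclear transport transcripts were lower with tranilast, by small amounts. Of the 81 tested members, 53 (65.4%) were called lower, beside 28.8% of all tested genes, and 4 (4.94%) were called higher, beside 28.2%. The other 24 were not called. The median log2 fold change of the members was -0.17, beside 0.0085 over all tested genes, and 68 of the 81 values were negative. No member reached an absolute log2 fold change of 1.5 with its call, a size reached by 1.11% of all tested genes. In 56 members the 4 tranilast values all lay on 1 side of the 4 control values, 51 below and 5 above, a share of 69.1% beside 49.8% of all tested genes. The median absolute log2 fold change was 0.19 in the members and 0.21 over all tested genes. The median SE was 0.038 and 0.063, and the part of this precision in the shares was not tested. Since the group was picked with this contrast known, these shares place the members against the table and carry no test. These libraries are bulk RNA, in which fewer cells of a kind and less RNA per cell cannot be told apart. The 22 genes of a cell cycle list went from 0.685% to 0.714% of control counts to 0.486% to 0.496% of tranilast counts, and their part in the members' values was not tested.

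**Figure D1:**
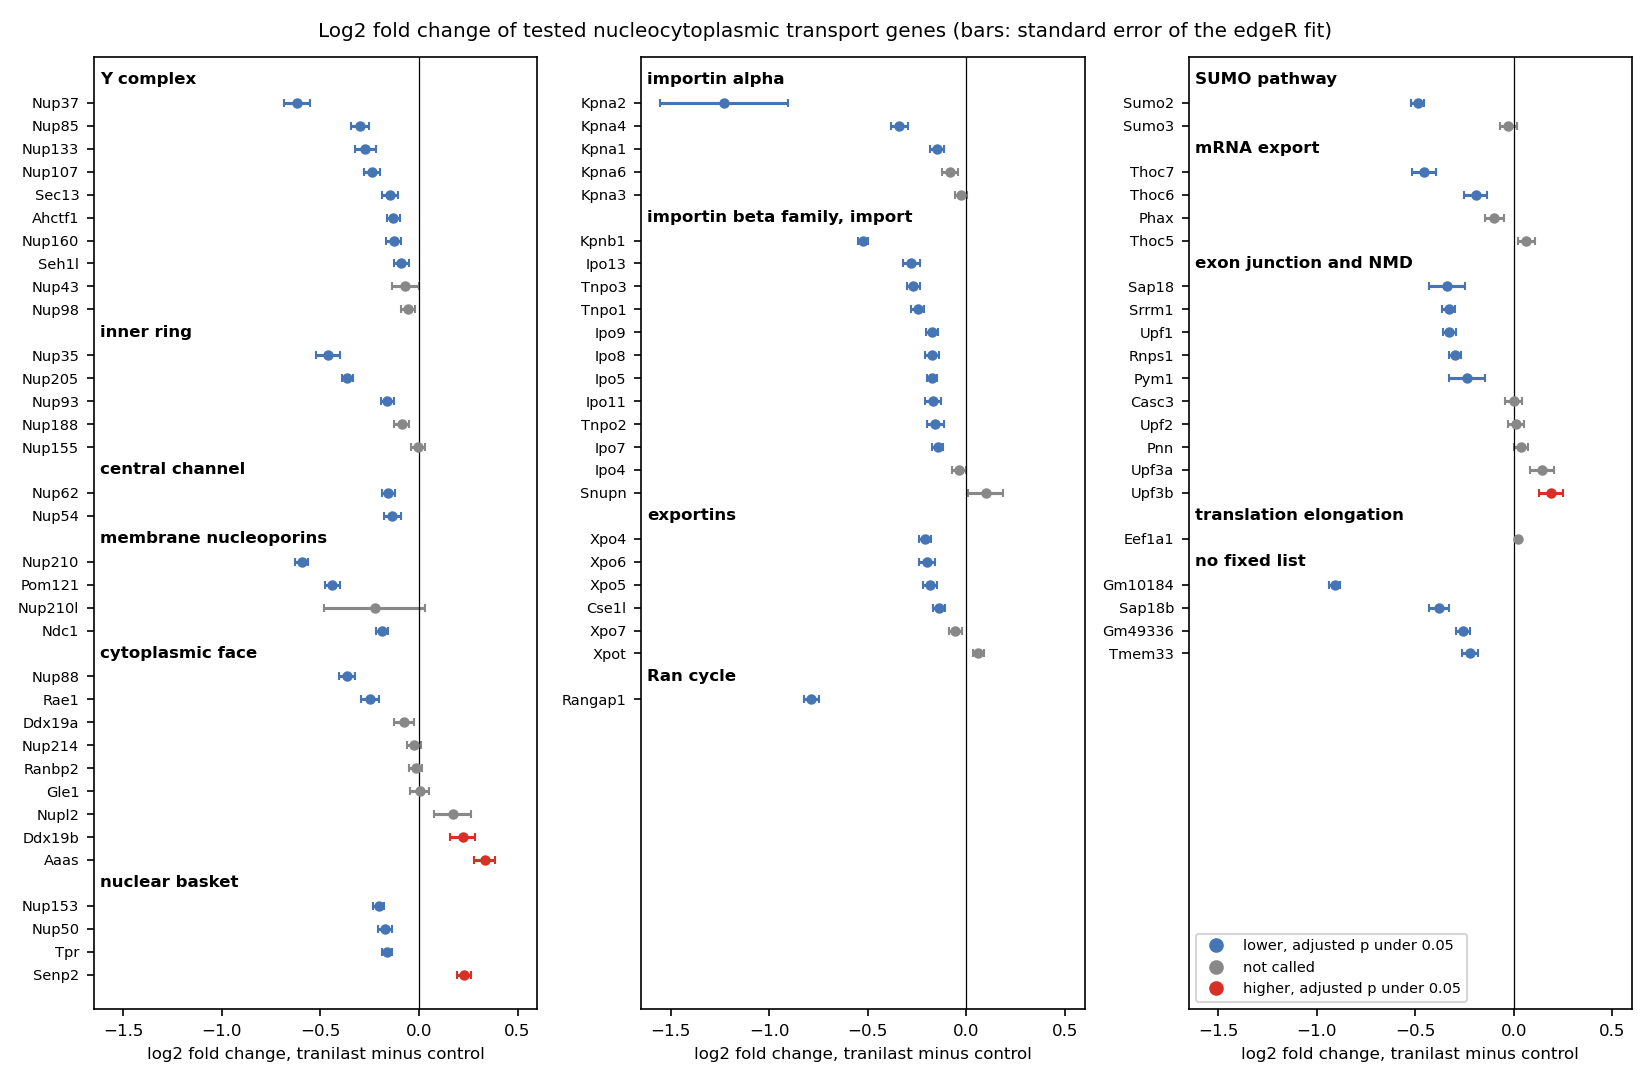
Log2 fold change (tranilast minus control, x axis) of the tested members by role, 2 of the 81 left out, with bars for the standard error of the edgeR fit over 4 control and 4 tranilast libraries. Blue points, called lower, fill most lists, while the 4 red points, called higher, are Aaas, Ddx19b, Senp2 and Upf3b.

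The size of the shift depended on how the libraries were scaled. TMM factors were 0.956 to 0.965 in the control and 1.037 to 1.045 in the tranilast libraries, and with library size alone the median of all tested genes moved from 0.0085 to 0.12. On that scale 31 members were called lower and 18 higher, so that the share called higher among called members went from 7.02% to 36.7%, beside 49.5% to 70.9% among all called genes, and 17.6% of all tested genes were called lower and 42.8% higher. Upper-quartile factors gave 43 lower and 10 higher (18.9% higher, beside 62.6% among all called genes), and log2(FPKM + 1) gave 30 lower and 14 higher (31.8% higher, beside 70.5%). The distance between the members' median and that of all tested genes was -0.18 with TMM, -0.18 with library size alone and -0.16 on the FPKM scale. Across 10 settings of scaling, tool and covariate, 28 members were called lower in every one, 4 (Aaas, Ddx19b, Senp2 and Upf3b) higher in every one, and 0 in opposite directions. Among the genes that lost their call were several described below: Cse1l, Kpna1, Nup62, Nup93, Sec13, Tpr and the non-member Nxf1 both by library size alone and on the FPKM scales, Ndc1 by library size alone and Nup153 on the FPKM scales. As shares of all counts, with no scaling factor, the 92 members together held 2.48% to 2.51% in the control and 2.51% to 2.53% in the tranilast libraries, while the members without the elongation factor Eef1a1 held 1.26% to 1.30% and 1.18% to 1.19%. The groups did not overlap in either share, and the direction of the first was the opposite of the second.

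**Figure D2:**
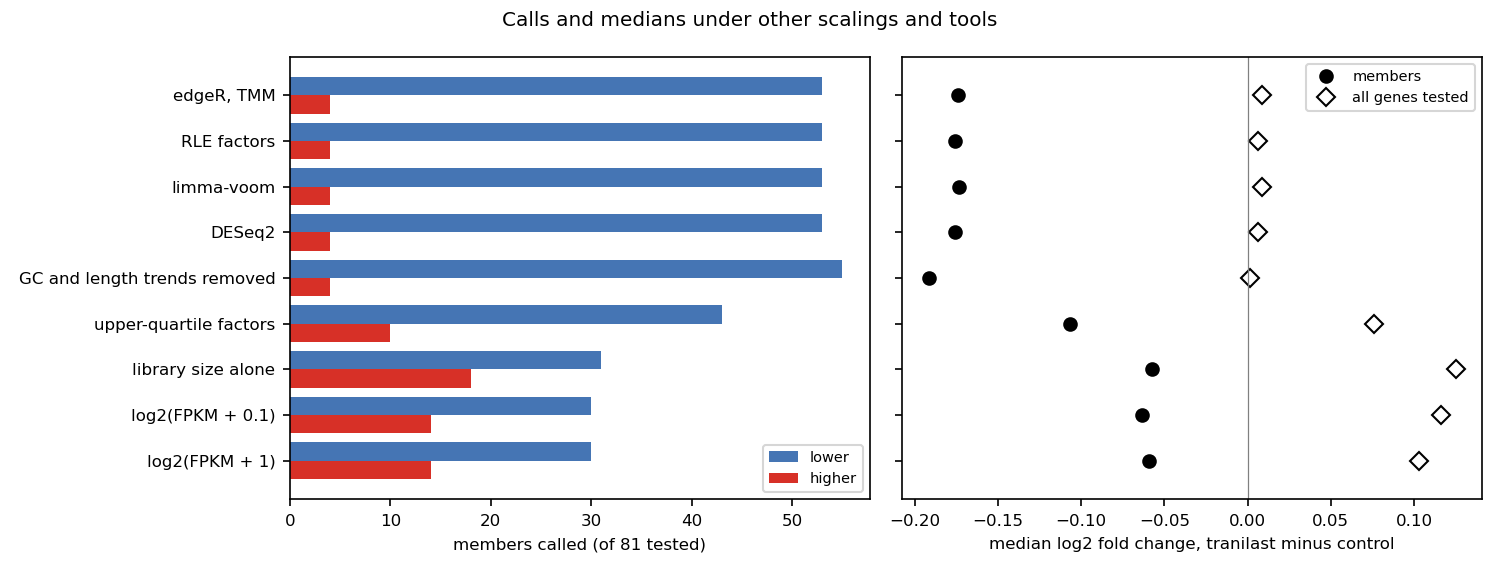
Left, members called lower and higher (x axis, of 81 tested) under each scaling or tool. Right, the median log2 fold change of the members (filled) and of all tested genes (open), which move together, so that the members stay 0.16 to 0.19 below all genes in every row drawn.

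The Ran cycle list had the lowest median fold change of the role lists. Rangap1, the GTPase-activating protein that makes Ran hydrolyse GTP on the cytoplasmic side (chromosome 15, bases 81704248 to 81745530, GRCm38), had 268, 247, 248 and 262 CPM in control replicates 1 to 4 and 146, 147, 157 and 144 CPM in tranilast replicates 1 to 4. All 4 tranilast values lay below all 4 control values, and Rangap1 fell by 42.1% (log2 fold change -0.79 ± 0.04). It is the single member among the 8 genes of the Ran cycle list, because the other 7 carry no annotation to this pathway or belong to Ribosome biogenesis as well. All 8 were called lower, with a median log2 fold change of -0.57 that became -0.45 by library size alone with all 8 still called lower.

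Ran itself had 704, 758, 708 and 718 CPM in control replicates 1 to 4 and 475, 473, 472 and 488 CPM in tranilast replicates 1 to 4 (-0.60 ± 0.03). Ranbp1, which helps Rangap1 release Ran from its carriers, had 315, 316, 342 and 313 CPM in control replicates 1 to 4 and 229, 226, 223 and 209.9 CPM in tranilast replicates 1 to 4 (-0.53 ± 0.04). Rcc1, the nucleotide exchange factor of Ran, had 106 to 116 CPM in the control and 84.8 to 93.4 CPM in the tranilast libraries (-0.32 ± 0.04). In each of these 3 genes the groups did not overlap, and Rcc1 had the value closest to 0. Rangrf, Rcc2 and Ranbp3 were called lower at -0.94 ± 0.15, -0.46 ± 0.02 and -0.28 ± 0.04, the first of these at levels of 9.25 to 12.3 CPM in the control and 3.98 to 6.53 CPM in the tranilast libraries. Nutf2, which returns Ran to the nucleus, had a log2 fold change of -0.80 ± 0.17, but its coding sequence is 100% identical over 381 bases to that of the retrogene Nutf2-ps1, Nutf2 took 11.8% to 30.2% of the counts of the pair, and the summed counts gave -0.29 ± 0.04.

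Importin alpha proteins bind the nuclear localization signal of a cargo and hand it to importin beta. The family illustrates how the counts of a member can rest on the choice between copies. Kpna2 (importin alpha-1, chromosome 11, bases 106988629 to 106999541, minus strand, up to 11 exons a transcript) and Gm10184 (chromosome 17, bases 89908462 to 89910449, minus strand, 1 exon) carry the same KEGG orthology entry, and their coding sequences of 1587 bases are 99.87% identical, with 2 mismatches and 0 gaps. The gene table describes Gm10184 as a predicted pseudogene, while GENCODE M21 lists it as protein coding. Both differences fall in the following stretch of 90 coding bases, numbered 652 to 741 from the first base of the start codon and read from GENCODE M21, with the differing bases in capitals.
Kpna2: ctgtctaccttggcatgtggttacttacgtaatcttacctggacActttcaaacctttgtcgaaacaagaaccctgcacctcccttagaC
Gm10184: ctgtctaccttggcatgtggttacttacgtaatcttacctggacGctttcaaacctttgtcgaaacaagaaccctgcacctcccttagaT

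Of all stretches of 100 bases in the Gm10184 transcript, 91.3% also occur in a Kpna2 transcript, so a read from most of that transcript does not tell the loci apart. In the other direction 56.8% of the stretches of Kpna2 transcripts occur in Gm10184. The deposited counts placed nearly everything on Gm10184. Gm10184 was counted 5835, 5918, 6425 and 6145 times in control replicates 1 to 4 and 3146, 3129, 2769 and 3457 times in tranilast replicates 1 to 4, while Kpna2 was counted 88, 46, 81 and 38 times in the control and 17, 17, 43 and 26 times in the tranilast libraries, in the same order. Kpna2 thus held 0.537% to 1.53% of the counts of the pair. On its own row Kpna2 gave the largest fold change of the members and also the least precise, at -1.23 ± 0.32, with overlapping groups and a coefficient of variation of 39.5% in the control and 55.6% in the tranilast libraries.

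Summed over both loci the values were tight. The sum was 425.5 ± 9.43 CPM (SD, n = 4) in control and 226 ± 1.69 CPM in tranilast libraries, with ranges of 414 to 435 and 225 to 228 CPM and a log2 fold change of -0.91 ± 0.03. Gm10184 alone gave -0.91 ± 0.03. How the counting divided reads from the shared stretches is not given in the sources used here, so the split between the 2 loci is uncertain and the summed value is that of the pair.

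**Figure D3:**
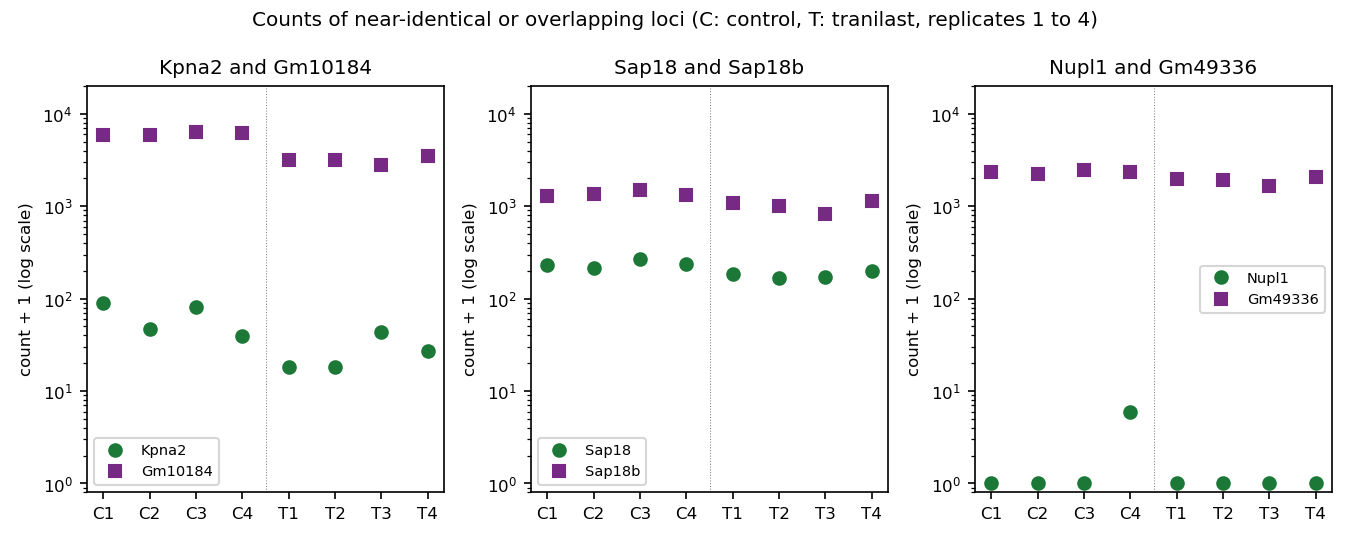
Counts plus 1 (y axis, log scale) of 3 pairs of near-identical or overlapping loci in each library, with control replicates C1 to C4 left of the dotted line and tranilast replicates T1 to T4 right of it. In each pair the locus without an established symbol or with the b suffix takes most of the counts, and Kpna2 scatters from library to library while Gm10184 does not.

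The other importin alpha genes differed less. Kpna4 (importin alpha-3) had 140.0, 151, 139.5 and 134 CPM in control replicates 1 to 4 and 114, 108, 116 and 108 CPM in tranilast replicates 1 to 4 (-0.34 ± 0.04), without overlap. Kpna1, at 171 to 188 CPM in the control and 156 to 164 CPM in the tranilast libraries, was called lower at -0.15 ± 0.04. Kpna6 and Kpna3 were not called, at -0.08 ± 0.04 and -0.03 ± 0.03 with overlapping groups. The sign of both turned positive by library size alone (0.033 and 0.087), where Kpna3 was called higher (edgeR adjusted p of 0.024), while on the TMM scale it had 193 to 197 CPM in the control and 186 to 197 CPM in the tranilast libraries. The 5 tested members of the list were 3 lower and 0 higher, and 2 lower and 1 higher by library size alone.

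Importin beta-1, encoded by Kpnb1 (chromosome 11, bases 97159714 to 97187881), carries the importin alpha-cargo complex through the pore and is released by Ran-GTP. It was the most abundant of its family per transcript length, at 147 ± 2.26 FPKM in control and 111 ± 3.18 FPKM in tranilast libraries (mean ± SD, n = 4, as for the levels in FPKM that follow). Its libraries read 889, 889.5, 907 and 916 CPM in control replicates 1 to 4 and 619, 648, 631 and 606 CPM in tranilast replicates 1 to 4. No tranilast library came near the control range, and Kpnb1 fell by 30.5% (-0.52 ± 0.03). The list for import by this family held 12 tested members, among them Snupn, which is not of the family. Of these, 10 were called lower and 0 higher, with a median of -0.17. By library size alone 4 were lower and 1 higher with a median of -0.057. The next in size was Ipo13, at -0.28 ± 0.04, Tnpo3, the carrier of serine- and arginine-rich splicing factors, at -0.27 ± 0.03 and Tnpo1 (transportin) at -0.25 ± 0.03. Ipo5, Ipo7 and Ipo9, which carry ribosomal proteins and histones among other cargo, were close to each other at -0.17 ± 0.03, -0.15 ± 0.03 and -0.17 ± 0.03. Ipo4 and the snRNP carrier Snupn were not called, at -0.04 ± 0.04 and 0.10 ± 0.09.

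Of the exportin members, 4 were called lower and 2 were not called. Cse1l, which returns importin alpha to the cytoplasm and had the highest exportin level per length (79.5 ± 2.26 FPKM in control and 78.4 ± 2.504 FPKM in tranilast libraries), had 292 to 308 CPM in the control and 263 to 282 CPM in the tranilast libraries with no overlap and fell by 9.27% (-0.14 ± 0.03), a call lost by library size alone (-0.024) and on log2(FPKM + 1) (-0.020). Xpo4, Xpo6 and Xpo5, the last the exporter of microRNA precursors, were called lower at -0.21 ± 0.03, -0.20 ± 0.04 and -0.19 ± 0.04. Xpo7 was not called at -0.06 ± 0.03, nor was the tRNA exporter Xpot at 0.06 ± 0.03. By library size alone the 6 were 1 lower and 1 higher. Xpo1, the main protein exporter and no member because of its second annotation, had 486, 467, 448 and 479 CPM in control replicates 1 to 4 and 347, 345, 348 and 339.6 CPM in tranilast replicates 1 to 4 (-0.45 ± 0.03), without overlap. Members of the importin alpha, importin beta family and exportin lists together were 17 lower and 0 higher of 23 tested, with a median of -0.17. Over all tested genes 28.8% were called lower and 28.2% higher. By library size alone 2, 4 and 1 genes of these lists were called lower, and 1 in each was called higher.

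**Figure D4:**
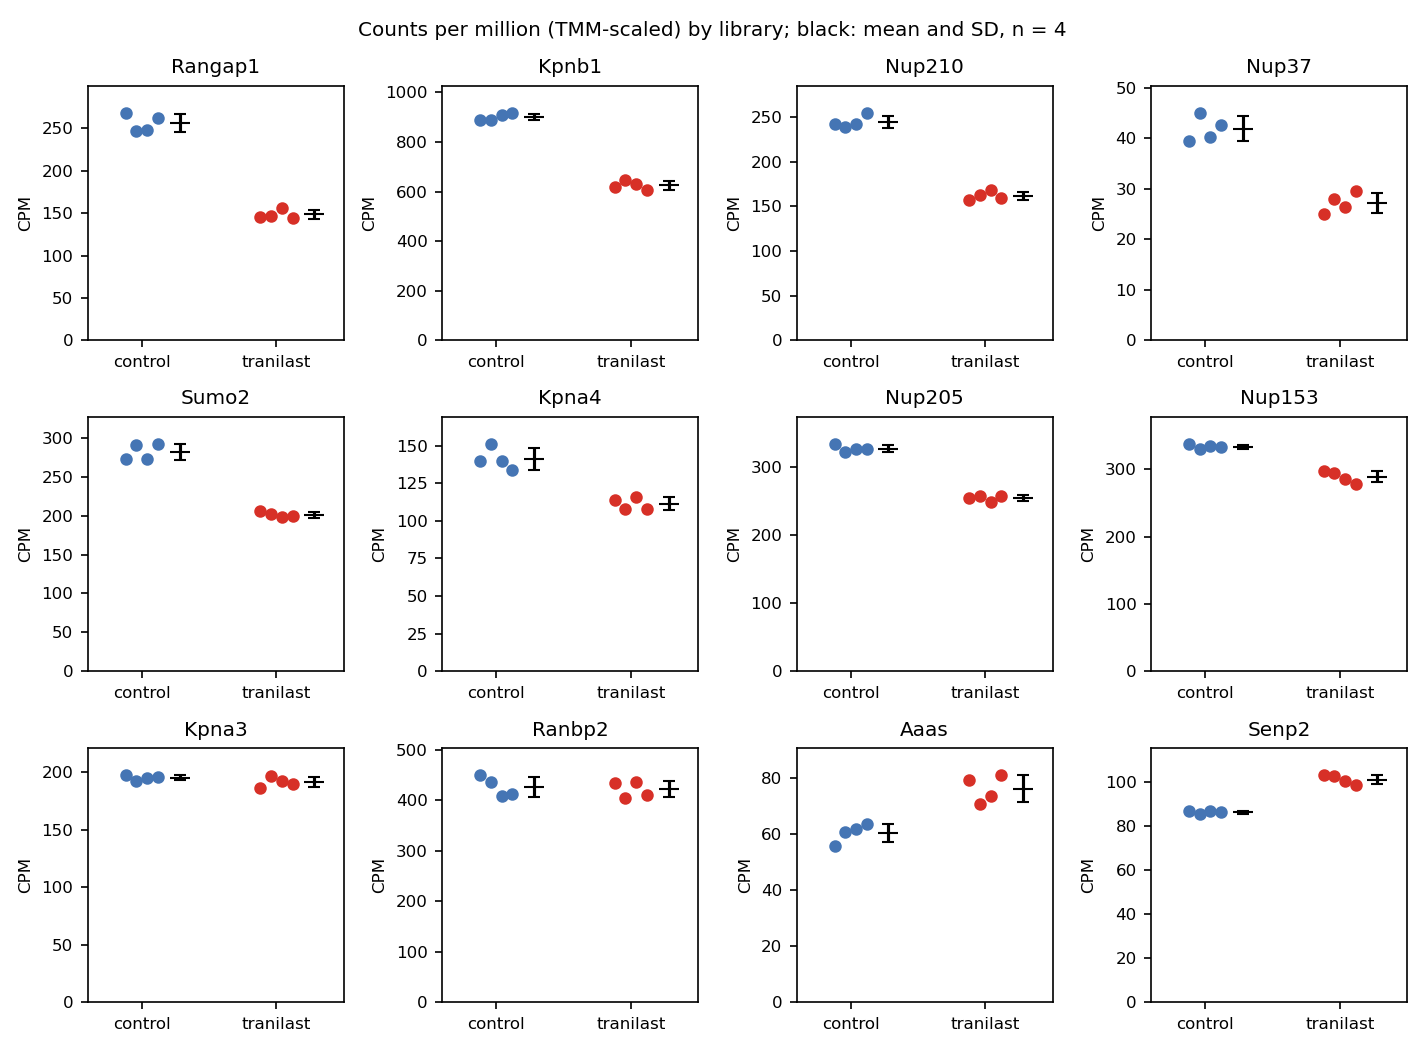
CPM on TMM-scaled library sizes (y axis from 0) of 12 members in the 4 control (blue) and 4 tranilast (red) libraries, with the mean and SD in black. The groups are apart in Rangap1, Kpnb1, Nup210, Nup37, Sumo2, Kpna4, Nup205 and Nup153, overlap in Kpna3 and Ranbp2, and are apart in the other direction in Aaas and Senp2.

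The Y complex is the outer scaffold of the pore. All 10 members of its list, which also holds Nup98 from outside the complex, were tested, and 8 were called lower and 0 higher. The list's median log2 fold change was -0.14, and -0.022 by library size alone with 4 called lower. Nup37, a peripheral subunit of the complex (chromosome 10, bases 88146992 to 88178390), differed most, with 39.5, 44.9, 40.3 and 42.6 CPM in control replicates 1 to 4 and 25.1, 28.01, 26.4 and 29.6 CPM in tranilast replicates 1 to 4. It fell by 34.8% (-0.62 ± 0.07) with the groups well apart. Nup107, a core subunit, had 120.3 to 127 CPM in the control and 99.6 to 111 CPM in the tranilast libraries (-0.24 ± 0.04), and Nup85 and Nup133 were called lower at -0.30 ± 0.04 and -0.27 ± 0.05. Sec13, shared with the COPII coat of secretory vesicles and the highest of the list per length, was 74.8 ± 2.92 FPKM in control and 73.1 ± 1.76 FPKM in tranilast libraries. Its log2 fold change was -0.15 ± 0.04 on the TMM scale. Nup43 and Nup98 were not called, at -0.07 ± 0.07 and -0.06 ± 0.03. The genes of this list thus spanned from -0.62 in Nup37 to -0.056 in Nup98 in log2 fold change.

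The inner ring surrounds the channel. Nup35 and Nup205 were called lower in all 10 settings, Nup35 at 51.4 to 60.3 CPM in the control and 37.8 to 44.2 CPM in the tranilast libraries (-0.46 ± 0.06) and Nup205 at 323 to 334 CPM in the control and 248 to 258 CPM in the tranilast libraries (-0.36 ± 0.03). Nup93, which anchors the ring and had its highest level per length (57.02 ± 1.42 FPKM in control and 55.3 ± 1.23 FPKM in tranilast libraries), was called lower at -0.16 ± 0.03. By contrast Nup155, of the same ring, had 176, 185, 168 and 178 CPM in control replicates 1 to 4 and 176, 179, 173 and 176 CPM in tranilast replicates 1 to 4, and its groups overlapped (-0.0039 ± 0.03). Nup188 was not called at -0.09 ± 0.04. By library size alone the 5 genes were 2 lower and 1 higher. In the central channel, whose phenylalanine-glycine repeats form the permeability barrier, Nup62 had 163 to 173 CPM in the control and 146 to 157 CPM in the tranilast libraries (-0.15 ± 0.03) and Nup54 was called lower at -0.13 ± 0.04 with overlapping groups, while neither was called by library size alone. The other channel nucleoporin, Nup58, is covered by the locus Gm49336. Its old symbol Nupl1 had 5 counts in control replicate 4 and 0 in the other 7 libraries, the loci overlap on chromosome 14 with 48.8% of the exonic bases of Nupl1 shared, both carry the same KEGG orthology entry, and Gm49336 held 154 to 167 CPM in the control and 133 to 139 CPM in the tranilast libraries (-0.26 ± 0.04).

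Membrane nucleoporins anchor the pore in the nuclear envelope, and 3 of the 4 tested were called lower with a median of -0.33, the lowest of the 6 pore lists (-0.22 by library size alone, with 2 called lower). Nup210 (gp210, chromosome 6, bases 91013068 to 91116829) had 243, 239, 242 and 254 CPM in control replicates 1 to 4 and 157, 162, 168 and 159.6 CPM in tranilast replicates 1 to 4. The libraries of each group lay within a narrow band and far from the other group, and Nup210 fell by 33.8% (-0.59 ± 0.03). Pom121, needed for pore assembly in interphase, had 186 to 210.4 CPM in the control and 141 to 152 CPM in the tranilast libraries (-0.44 ± 0.04). Ndc1, the most abundant of the list per length at 49.1 ± 1.45 FPKM in control and 44.6 ± 1.002 FPKM in tranilast libraries, was called lower at -0.19 ± 0.03. The paralog Nup210l was near the floor, at 1.81 to 2.58 CPM in the control and 1.36 to 2.54 CPM in the tranilast libraries, and was not called. Tmem33, a membrane protein of the pore and endoplasmic reticulum outside the lists, was called lower at -0.22 ± 0.04.

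The cytoplasmic face held calls in both directions, at shares near those of all tested genes. Of its 9 members, 2 (22.2%) were called lower, beside 28.8% of all tested genes, 2 (22.2%) higher, beside 28.2%, and 5 were not called. The median log2 fold change was -0.017. By library size alone the median turned to 0.099 with 2 lower and 6 higher, beside 17.6% and 42.8% of all tested genes. Ranbp2, the large filament protein that binds Ran and has SUMO ligase activity, had 449, 437, 409 and 412 CPM in control replicates 1 to 4 and 434, 405, 436 and 411 CPM in tranilast replicates 1 to 4. Its groups overlapped, and its log2 fold change of -0.02 ± 0.03 was positive by library size alone (0.099), where it was called higher (edgeR adjusted p of 0.017). Nup214 and Gle1 were likewise not called, at -0.03 ± 0.04 and 0.0025 ± 0.05. Nup88, the partner of Nup214 and the highest of the list per length (48.4 ± 1.14 FPKM in control and 40.8 ± 1.803 FPKM in tranilast libraries), had 117 to 124 CPM in the control and 89.7 to 99.03 CPM in the tranilast libraries (-0.37 ± 0.04), and Rae1 was called lower at -0.25 ± 0.05.

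Of this face, 2 genes were called higher. Aaas, which encodes aladin (chromosome 15, bases 102338252 to 102350771), had 55.8, 60.5, 61.7 and 63.5 CPM in control replicates 1 to 4 and 79.2, 70.6, 73.6 and 80.8 CPM in tranilast replicates 1 to 4 and rose (0.33 ± 0.05). Every tranilast value was above every control value. Ddx19b, an RNA helicase that strips export factors from mRNA at the filaments, had 36.1, 34.1, 35.96 and 38.04 CPM in control replicates 1 to 4 and 38.6, 47.2, 41.5 and 40.8 CPM in tranilast replicates 1 to 4 (0.22 ± 0.06), and here the lowest tranilast value was close to the highest control value. Its paralog Ddx19a, whose coding sequence is 91.09% identical, was not called (-0.08 ± 0.05). Of the stretches of 100 bases in Ddx19a transcripts, 19.3% also occur in Ddx19b, and 8.57% in the other direction. The counts of these paralogs were not summed, and how reads from their shared stretches were divided is not known.

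On the nuclear side, the basket members Tpr, Nup153 and Nup50 were called lower and the remaining one, Senp2, higher. Tpr, the main basket filament protein, had 453 to 469 CPM in the control and 397 to 421 CPM in the tranilast libraries (-0.16 ± 0.03), and Nup153, which attaches the basket to the ring, had 337, 329.6, 334 and 333 CPM in control replicates 1 to 4 and 298, 295, 286 and 278 CPM in tranilast replicates 1 to 4 (-0.21 ± 0.03). Both had groups that did not overlap. Senp2, a SUMO protease docked at the basket (chromosome 16, bases 22009484 to 22049269), had 86.9, 85.4, 86.9 and 86.5 CPM in control replicates 1 to 4 and 103, 103, 100.5 and 98.6 CPM in tranilast replicates 1 to 4. It rose (0.23 ± 0.04), with the 4 control values within 85.4 to 86.9 CPM. By library size alone the basket list was 1 lower and 1 higher.

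SUMO is a small protein tag attached to Rangap1 and Ranbp2 at the pore, among many targets. Sumo2, the most abundant member after Eef1a1 per length (258 ± 9.59 FPKM in control and 199 ± 3.17 FPKM in tranilast libraries), had 272, 290.3, 272 and 292 CPM in control replicates 1 to 4 and 206, 202, 198 and 199 CPM in tranilast replicates 1 to 4 and fell by 28.6% (-0.49 ± 0.03). Sumo3 was not called, at -0.03 ± 0.04 with overlapping groups. Of the non-member enzymes on the same list, Sae1, Uba2 and Senp1 were called lower at -0.40 ± 0.04, -0.30 ± 0.03 and -0.25 ± 0.04, and Pias4 was not called.

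RNA export and the exon junction complex, which marks spliced mRNA, were mixed. Of the 4 mRNA export members Thoc7, a subunit of the THO complex, had 43.8 to 49.7 CPM in the control and 30.2 to 35.6 CPM in the tranilast libraries (-0.45 ± 0.06) and Thoc6 was called lower at -0.19 ± 0.06, while Phax and Thoc5 were not called (-0.10 ± 0.05 and 0.06 ± 0.04). Over all tested genes 28.8% were called lower and 28.2% higher, and 17.6% and 42.8% by library size alone. In the whole mRNA export list of 28 tested genes, non-members included, 14 (50%) were lower and 3 (10.7%) higher with a median of -0.10. By library size alone this list held 8 lower and 5 higher, and its median turned to 0.017. Among its non-members, Nxf1, the bulk mRNA export receptor, was called lower at -0.13 ± 0.04, a call lost by library size alone (-0.015), and its cofactor Nxt1 was not called at -0.06 ± 0.06, positive by library size alone (0.053). The Nxt1 paralog Nxt2 had 94.6 to 102 CPM in the control and 54.3 to 60.8 CPM in the tranilast libraries (-0.78 ± 0.05). Beside the same all-gene shares, 5 (50%) of the 10 exon junction and nonsense-mediated decay members were lower and 1 (10%) higher. By library size alone these members were 4 lower and 5 higher. Rnps1, their highest per length (129 ± 1.96 FPKM in control and 114 ± 1.597 FPKM in tranilast libraries), had 229 to 234 CPM in the control and 186 to 193 CPM in the tranilast libraries (-0.30 ± 0.03), the decay helicase Upf1 was at -0.33 ± 0.03 and the splicing coactivator Srrm1 at -0.33 ± 0.03. Upf3b, which bridges the junction complex to decay factors, had 31.4, 29.2, 31.4 and 32.1 CPM in control replicates 1 to 4 and 34.4, 37.1, 33.6 and 36.3 CPM in tranilast replicates 1 to 4 and rose (0.19 ± 0.06), its groups separated by a narrow gap. Its paralog Upf3a was not called at 0.14 ± 0.06, and Upf2 and Casc3 were at 0.01 ± 0.04 and -0.0011 ± 0.04.

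Sap18 and Sap18b, histone deacetylase-associated proteins of the junction complex, are a further pair with shared reads. Their coding sequences of 516 bases are 100% identical, Sap18b (chromosome 8, bases 95825346 to 95826134) has 1 exon and Sap18 (chromosome 14, bases 57798180 to 57806638) up to 4, and Sap18 took 13.8% to 17.3% of the counts. The rows gave -0.34 ± 0.09 and -0.38 ± 0.05, and the sum -0.37 ± 0.05, at 111 ± 5.26 CPM in control and 85.5 ± 4.62 CPM in tranilast libraries. Leaving out the 6 loci of the Kpna2, Sap18 and Nupl1 pairs left 76 tested members, of which 48 were called lower and 4 higher, with a median of -0.16.

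Per transcript length the members were expressed above the typical gene. Their median level was 34.6 FPKM (fragments scaled by transcript length and depth, mean of 8 libraries), beside 14.7 FPKM over all tested genes. Levels ran from 0.348 FPKM in Nup210l to 7184 FPKM in the translation elongation factor Eef1a1, followed by Sumo2 at 228 FPKM. Eef1a1 alone held about as many counts as all other members, at 12484, 12799, 12715 and 12621 CPM in the control and 12939, 12805, 12706 and 12877 CPM in the tranilast libraries, and was not called (0.02 ± 0.01). Replicates were close, with a median coefficient of variation over the tested members of 3.40% in the control and 3.01% in the tranilast libraries.

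**Figure D5:**
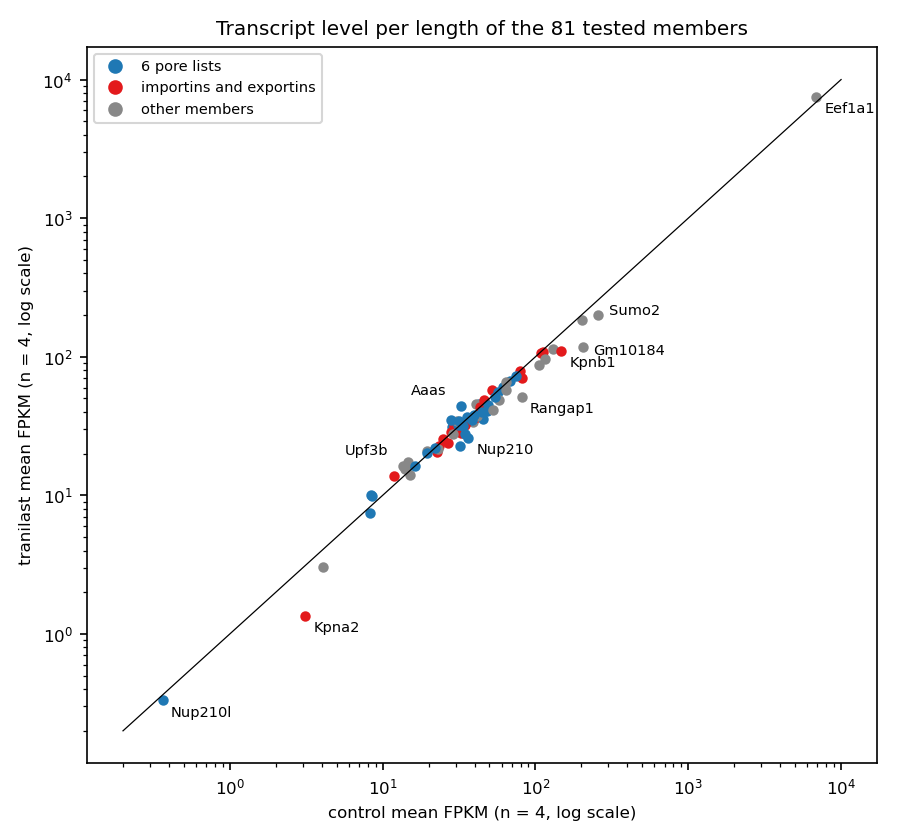
Mean FPKM over 4 tranilast libraries (y axis, log scale) against mean FPKM over 4 control libraries (x axis, log scale) for the 81 tested members, coloured by role, with a line of equal level. Rangap1, Kpnb1, Sumo2, Nup210 and the Gm10184 locus lie below the line and Aaas above it, while Eef1a1 stands far above all other members in level.

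Promoters were read from RefSeq (GRCm38.p6), from 250 bases before to 50 after each gene start, for the 62 of 81 tested members with an entry, and searched on both strands. The cell-cycle element CHR (TTTGAA) was found in 20.97% of tested members with a promoter, beside 14.54% of all tested genes and 20.23% of all promoters. CCAAT was found in 45.16%, beside 44.09% and 41.06%, and the E-box CACGTG in 12.9%, beside 12.18% and 8.09%. The E2F letters TTCCCGC were present in 9.68%, beside 10.2% and 5.29%, and TTGGCGC in 4.84%, beside 5.33% and 2.85%. GCATGCG, the core of the NRF1 site, was in 11 of 62 (17.74%), beside 7.83% and 4.02%. Those 11 were Ddx19a, Ddx19b, Eef1a1, Nup107, Nup50, Nup62, Sap18, Senp2, Srrm1, Upf1 and Xpo5, which include genes called lower, genes called higher and genes not called. These are letter matches with no test, and CCAAT and the other motifs can overlap.

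Promoters of 3 genes are shown, chosen after the matches were seen, for motifs that lie close together. Each is the 200 bases before a RefSeq gene start (for Nup37, 1 of 2 starts), written 5′ to 3′ on the gene's strand. CHR letters (TTTGAA or its reverse complement TTCAAA) and CCAAT are in capitals. They lie at chr11:106999526-106999725 (Kpna2, minus strand), chr10:88146792-88146991 (Nup37, plus strand) and chr11:97187893-97188092 (Kpnb1, minus strand) of GRCm38.p6.
Kpna2: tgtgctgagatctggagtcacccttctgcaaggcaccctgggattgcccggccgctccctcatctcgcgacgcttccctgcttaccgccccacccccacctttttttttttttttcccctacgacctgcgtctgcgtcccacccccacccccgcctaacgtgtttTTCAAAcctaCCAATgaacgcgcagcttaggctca
Nup37: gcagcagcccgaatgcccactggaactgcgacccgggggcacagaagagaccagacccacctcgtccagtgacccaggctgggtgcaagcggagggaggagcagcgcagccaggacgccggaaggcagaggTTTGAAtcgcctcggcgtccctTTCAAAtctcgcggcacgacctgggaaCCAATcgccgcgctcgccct
Kpnb1: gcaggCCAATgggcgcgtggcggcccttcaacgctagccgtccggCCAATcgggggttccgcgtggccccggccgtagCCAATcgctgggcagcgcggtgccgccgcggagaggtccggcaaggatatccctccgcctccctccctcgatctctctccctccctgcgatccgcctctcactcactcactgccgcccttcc

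In the Kpna2 promoter a CHR match at base -35 and a CCAAT match at base -25 from the start stand next to each other. Another Kpna2 CCAAT match, at base 6, lies past the printed stretch. Kpnb1 has 3 CCAAT matches at -195, -155 and -122 and no CHR match in the searched window. Nup37 has CHR matches at -69 and -47 and CCAAT at -20 from the start used here. From its other RefSeq start the same matches lie at -148, -126 and -99. The Kpna2 promoter belongs to the chromosome 11 locus, to which few of the counts of the pair were assigned, and Gm10184 is on chromosome 17.

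The nuclear lamina and envelope genes, neighbours of the pore and no members, were 9 lower (45%) and 2 higher (10%) of 20 tested. Over all tested genes 28.8% were called lower and 28.2% higher. The list's median of -0.12 was -0.00073 by library size alone, with 8 lower and 6 higher, beside 17.6% and 42.8% of all tested genes. Lmnb1 (lamin B1) had 328 to 350.1 CPM in the control and 186 to 208 CPM in the tranilast libraries (-0.79 ± 0.04), Lmna 808 to 829 CPM in the control and 563 to 585 CPM in the tranilast libraries (-0.51 ± 0.02) and Tmpo, which tethers lamins to chromatin, 461 to 485 CPM in the control and 321 to 329 CPM in the tranilast libraries (-0.54 ± 0.03). Lmnb2, another lamin gene, was not called at -0.09 ± 0.04, and Tor1b was called higher at 0.17 ± 0.06. Of the linker proteins, Sun2 and Syne3 were called lower (-0.76 ± 0.06 and -0.70 ± 0.04) and Syne2 higher (0.43 ± 0.13), while Sun1 and Syne1 were not called (0.07 ± 0.04 and 0.04 ± 0.04).

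Of the 22 cell cycle genes, 18 were called lower and 1 higher, and their median log2 fold change was -0.92 (-0.80 by library size alone, with 15 lower and 4 higher). The mitotic genes Plk1, Cdc20 and Ccnb1 were at -2.58 ± 0.05, -1.98 ± 0.05 and -1.95 ± 0.04. Of the genes for DNA replication and its nucleotides, Rrm1, Tyms, Mcm2 and Mcm5 were called lower, at -0.45 ± 0.03, -0.18 ± 0.06, -0.08 ± 0.03 and -0.07 ± 0.03. Rrm2 was called higher at 0.26 ± 0.03, while Pcna, Mcm3 and Mcm6 were not called, at 0.02 ± 0.03, 0.01 ± 0.03 and -0.01 ± 0.03.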

How the data were processed

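Total RNA labelled as mouse liver was sequenced as poly-A enriched, paired-end libraries per the study's methods, which name GENE DENOVO for the data analysis. The labels name an Illumina NovaSeq and the methods a HiSeq X-ten. Aligner, counting tool and genome build are not given in the sources used here. The authors deposited 1 table with an estimated count for each gene and library, made from the reads without further normalization per the file headers, of which 92.7% to 93.9% per library were whole numbers. It also holds FPKM values, scaled by the authors for transcript length and depth. FPKM carries no TMM factor.

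Estimated counts were rounded and fitted on the whole table with edgeR 4.0.16 (quasi-likelihood test, TMM factors, filterByExpr by group) in R 4.3.3, with Benjamini-Hochberg adjustment over 10770 genes, and the fit was tested on simulated data. The biological coefficient of variation was 5.09%. The members, role lists, marker lists and motifs were chosen with earlier results of these data known, and role lists are textbook assignments. Named genes were the 10 lowest and 6 highest called members without overlap and with a mean count of at least 50 (only 4 were higher), the highest member per length of each list, and a list of Ran cycle, importin, basket and export genes. Other members given for their role, the genes of the lamina and cell cycle lists and the marker genes named were chosen after their values were seen. Alternatives were RLE, upper-quartile and library-size scaling, other filters, DESeq2 1.42.0, limma 3.58.1 (voom, and trend on log2(FPKM + 1) and log2(FPKM + 0.1)), a replicate block, each library left out, other thresholds, and, added after seeing the data, removal of GC and length trends and summing of near-identical loci. Transcripts and coordinates came from GENCODE M21 (GRCm38) by Ensembl identifier, which matched 92 of 92 members, and promoters from RefSeq (GRCm38.p6). The table's build is unknown, so coordinates are those of the reference. Counting error covers reads and not animals. Values of 2 members are not reported here, and these genes enter the counts over all members.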

Additional observations from a re-analysis of the deposited data

Results flagged for a closer look

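In 84 tests of a group of 4 libraries for a single distant value, 2 were flagged, where chance flags about 1 in 20. Ranbp1 in control replicate 3 was 8.42 on the log2 CPM scale, beside 8.29 to 8.31 in the other 3 control libraries. Ran in tranilast replicate 4 was 8.93 on the log2 CPM scale, beside 8.88 to 8.89 in the other 3 tranilast libraries. Neither value reached the other group.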

How the results depend on the processing

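Calls depended mainly on scaling. With upper-quartile factors, 10 members were called higher and the median was -0.11. With library size alone, 18 were higher and 31 lower (median -0.057). On log2(FPKM + 1), 14 were higher and 30 lower (median -0.059), and on log2(FPKM + 0.1), 14 and 30 (median -0.063). Removing GC and length trends gave a median of -0.19. With a required absolute log2 fold change of at least 1.5, 0 were higher and 0 lower. An unadjusted p under 0.05 in edgeR was reached by 60 of the 81 tested members, beside 6607 of the 10770 genes tested. The all-gene median was 0.076 with upper-quartile factors, 0.12 with library size alone, and 0.10 and 0.12 on the FPKM scales.

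Signs turned for 4 genes not called with TMM, and at positive values Kpna3 was called by library size alone and on both FPKM scales (edgeR and limma adjusted p of 0.024, 0.045 and 0.047) and Ranbp2 by library size alone (edgeR adjusted p of 0.017). Kpna3 was 0.038 with upper-quartile factors, 0.087 with library size alone, 0.085 on log2(FPKM + 1) and 0.087 on log2(FPKM + 0.1). Ranbp2 was 0.050, 0.099, 0.097 and 0.099 on these scales and -0.038 to 0.0070 with 1 library left out (0.0070 without control replicate 1 and 0.0040 without tranilast replicate 2). Nxt1 was 0.0041, 0.053, 0.046 and 0.047, and Kpna6 0.033, 0.047 and 0.049 on the last 3. Of 758 alternative values of 38 named genes, 707 kept direction and call, 28 lost the call, 6 gained it and 17 turned sign, and the cause was not tested.

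Leaving out 1 library at a time gave 51 to 53 members lower, 4 to 6 higher and medians from -0.17 to -0.16. Members without overlap numbered 56 to 62. A smaller group separates more easily for any gene, and the share over all tested genes was not computed, so these numbers say nothing particular to the members. Calls of Seh1l, Pym1 and Nup54 were lost in at least 1 of the fits with a library left out. Replicate numbers did not pair the libraries, with correlations of deviations of -0.057, -0.041, 0.0063 and 0.10 for the same numbers, and the fit with a replicate block gave 52 lower and 4 higher.

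The label liver without hepatocyte transcripts, an unknown dose and the unknown counting of near-identical loci limit what the values stand for. The 11 members left out did not pass the filter on low counts, and for Nupl1 nearly all counts of the pair were assigned to Gm49336.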
